A study of Rattus norvegicus with 15 samples.

Results

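Solute carriers are the membrane proteins that move nutrients, ions, metals, vitamins and drugs across the plasma membrane and the membranes of organelles. The rat array held probes for 307 genes whose symbol starts with Slc, and 3 of them (Slc34a2, Slc2a1 and Slc16a3) were set aside. Of the other 304 genes, the 166 described here had a probe detected above the negative controls of its own array (detection p under 0.01) on at least 3 of the 15 arrays. A gene with several such probes was read on the one with the highest mean signal. The 138 genes that did not pass comprised 114 detected on no array and 24 detected on 1 or 2 arrays. The members were thus chosen by their detection p-values and signals, and a gene that passed on the arrays of a single day had to differ between days. This held for the 6 members detected at D0 alone (Slc13a2, Slc16a11, Slc22a3, Slc23a1, Slc26a9 and Slc7a1) and for Slc22a20, detected at D2 alone. Their p-values are given as a description.

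RNA came from rat alveolar epithelial cells at isolation (D0, AT2 cells), on intermediate days (D2, D4 and D6) and as AT1-like cells (D8), with 3 arrays per day. AT2 cells are the cuboidal cells that make surfactant, and in culture they spread and take on features of AT1 cells, the thin cells of gas exchange. All samples were labelled male and received no agent beyond culture, and the cultured cells of D8 are a model of AT1 cells, not AT1 cells taken from the lung. The labels name neither the animal nor the purification of an array, so p-values here measure the spread between arrays, which may be technical in part.

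Most solute carriers use the gradient of a coupled ion, a concentration gradient or an exchanged substrate to drive transport. In the alveolus they supply AT2 cells with choline, inositol and phosphate for surfactant, take up peptides and amino acids from the lining fluid, and set the pH and ion content of that fluid. Others sit in lysosomes, the Golgi apparatus or the inner membrane of mitochondria and serve metabolism in every cell type.

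Arrays 1 and 2 of each day lay on slide 1, array 3 of D2 and D4 on slide 2, and array 3 of D0, D6 and D8 on slide 3. The slide 3 arrays detected 112 to 124 members and the slide 1 arrays 133 to 147. Each of the 6 AT2 markers with a probe was lower at D8 than at D0 (median log2 change -6.33), and 6 of 8 AT1 markers were higher. Markers of other cells moved as well. Summed on the linear scale, 7 macrophage and leukocyte markers had log2 levels of 12.93 to 13.40 at D8 and 11.40 to 12.39 at D0. Such a sum follows its brightest genes. Of the 7, 3 passed the threshold, with Ptprc at a change of 0.13 and Marco detected on no array. The same sum over 6 fibroblast markers ran from 13.50 to 15.65 at D8 and from 11.25 to 11.68 at D0. The largest rises were those of Col1a1 (4.62) and Col1a2 (3.07), with 2 of 6 past the threshold. Of 4 airway markers, 3 were lower at D8, among them Scgb1a1 (-4.00). Of 4 erythroid markers, the globin genes Hbb (-8.30) and Hba-a1 (-8.19) were lower, Ahsp did not pass (-0.26) and Alas2 was detected on no array. Of 3 endothelial markers, Cldn5 was lower (-2.66), and Cdh5 and Vwf were detected on no array. The part of these cell types in the results below was not tested. In bulk RNA, fewer cells of a type and less RNA per cell cannot be told apart.

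Between D8 and D0, 69 of the 166 members passed the threshold (limma, p adjusted by Benjamini-Hochberg across the 22523 probes, no higher than 0.05), 36 higher and 33 lower at D8. That is 41.6% of the members (21.7% higher, 19.9% lower). Over all probes of the array 18.0% passed, 9.98% higher and 8.06% lower, and over the 10269 probes that met the same detection rule 35.5% passed, 21.0% higher and 14.5% lower. The median log2 change was 0.06 over the members, 0.12 over the probes detected on at least 3 arrays and -0.02 over all probes. The share of members higher at D8 was thus near that of the detected probes, and the share lower at D8 was above theirs. Members that reached the detection rule only through their bright day had to differ, so these counts are a description, and no class is set apart by a test below. Slide 1 and slide 3, read apart, gave the same direction for each of the 69 changes. The calls were made from these same arrays, so this match is a description and not a replication. For 17 of the 69 no array of the dimmer day detected the gene, so they carry no measured fold.

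**Figure D1:**
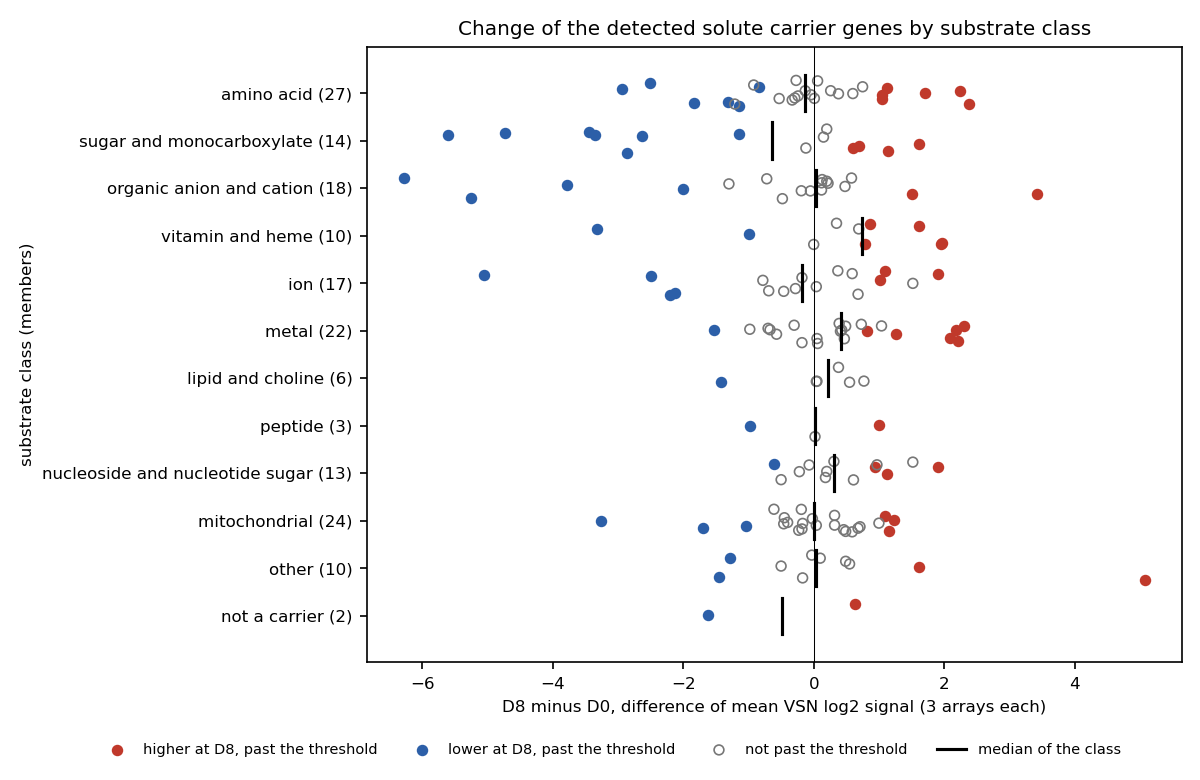
Difference of the mean VSN log2 signal, D8 minus D0 (x axis), of the 166 members by substrate class (y axis, number of members in parentheses). Filled points passed the adjusted threshold, open points did not, and a black bar marks the class median, lowest in the sugar and monocarboxylate class (-0.63) and highest in the vitamin and heme class (0.74).

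By detection, 9 members were lost, that is detected on all 3 D0 arrays and on no D8 array. They were Slc13a2, Slc16a11, Slc16a6, Slc22a3, Slc23a1, Slc26a4, Slc26a9, Slc7a1 and Slco4c1. This was 5.42% of the members, against 2.22% of the probes detected on at least 3 arrays. Gained members, with detection on all 3 D8 arrays and on no D0 array, were 4: Slc19a2, Slc41a2, Slc47a1 and Slco2a1, which was 2.41% of the members against 3.30% of those probes. The rule itself used detection, so nothing further is read from these shares. At a detection p under 0.05, 5 of the 9 lost members met the pattern, and of the gained ones Slc19a2 did (3 members met it in all). Without D8 array 3, on slide 3, 8 members met the pattern for gain. Members detected on all 3 arrays of a day numbered 109 for D0, 126 for D2, 121 for D4, 116 for D6 and 115 for D8. The 14 members just inside the rule, with exactly 3 detections, had mean raw signals of 190.3 to 377.2, and the 24 genes just outside had 165.5 to 207.4.

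Carriers of sugars and monocarboxylates held 14 members, of which 7 were lower, 4 higher and 3 not past the threshold at D8. Slc16a11, of the monocarboxylate carrier family, had log2 signals of 5.24, 4.66 and 4.50 at D8, against 10.34, 10.38 and 10.50 at D0. It was detected on no array from D2 on, and its signal was at least 15.6-fold lower at D8 than at D0 (adjusted p = 2.7e-08). Such a bound raises each undetected signal to the lowest detected signal of its array on the scale of the new VSN fit. On the values normalized by the authors, the bound was 7.17-fold. Slc13a2, the sodium-coupled carrier of citrate and succinate, had 5.37, 5.33 and 4.71 at D8, against 9.85, 10.27 and 9.49 at D0, and was at least 10.8-fold lower (5.13-fold on the authors' values, adjusted p = 2.6e-07). Neither gene overlapped between the days, but both met the detection rule through D0 alone, so they had to differ.

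Of the 3 members of the Slc5 family in this class, Slc5a8 and Slc5a3 fell and stayed detected, and Slc5a6 did not pass (-0.12, adjusted p = 0.871). Slc5a8, which takes up lactate and short-chain fatty acids with sodium, had 6.55, 6.34 and 6.77 at D8, against 10.03, 10.11 and 9.83 at D0, a log2 change of -3.44 (SE 0.28, adjusted p = 7.9e-07). Slc5a3, the sodium-coupled importer of myo-inositol, a precursor of phosphatidylinositol, had 8.32, 8.36 and 7.88 at D8, against 11.82, 11.55 and 11.23 at D0 (log2 change -3.35, SE 0.27, adjusted p = 6.0e-07). Slc16a1, the lactate and pyruvate carrier MCT1, had 9.51, 9.28 and 9.19 at D8, against 12.25, 11.93 and 12.40 at D0, and fell by 2.87 on the log2 scale (SE 0.21, adjusted p = 2.4e-07). Slc16a6, another monocarboxylate carrier, was lost by detection and at least 4.69-fold lower (2.56-fold on the authors' values). Slc50a1, a carrier of the SWEET family that lets glucose out of cells, fell by 1.15.

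Of the 4 members of this class that rose, Slc16a13 was higher by 1.14 (adjusted p = 0.00262), Slc37a4, which moves glucose 6-phosphate into the endoplasmic reticulum, by 0.70 (adjusted p = 0.0322), and Slc2a8, the intracellular glucose carrier GLUT8, by 0.60 (adjusted p = 0.042). Slc16a12, of the monocarboxylate carrier family, passed as well (1.61, adjusted p = 4.0e-04) but was detected on 1 D8 array and no D0 array. The call of Slc37a4 was lost without D8 array 1, D8 array 2 or D0 array 3, with an adjusted p of up to 0.138. That of Slc2a8 was lost once any single array of these days other than D0 array 2 was left out, with an adjusted p of up to 0.127.

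Carriers of organic anions and cations included the member with the largest fall on the fitted scale, Slco1a5. Of 18 members, 4 were lower, 2 higher and 12 not past the threshold. Slco1a5 encodes an organic anion transporting polypeptide that carries bile acids and thyroid hormones. Its log2 signals were 6.67, 6.72 and 6.16 at D8, against 13.01, 13.05 and 12.32 at D0, a change of -6.28 (SE 0.24, adjusted p = 7.1e-10), with detection on 2 of 3 D8 arrays. Every array from D2 on lay at or below 6.94. Slc22a3, the organic cation and monoamine carrier OCT3, had 4.99, 5.25 and 3.61 at D8, against 9.75, 9.49 and 10.36 at D0. It was detected at D0 alone and so met the detection rule only through that day. Its signal was at least 10.7-fold lower at D8 (5.12-fold on the authors' values, adjusted p = 7.6e-07).

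Slco4c1, an organic anion carrier known from the kidney, had 5.87, 5.04 and 5.28 at D8, against 9.98, 7.89 and 9.66 at D0. It was at least 6.66-fold lower (3.50-fold on the authors' values, adjusted p = 6.8e-05), with a bound of 5.04-fold without D0 array 1 and of 10.4-fold without D0 array 2, the lowest of its day. Slc22a23, a family member with no settled substrate, fell by 2.01 (adjusted p = 8.4e-04), and by 1.12 in the mean with its other probe, which no array detected. In the opposite direction moved Slc47a1, the proton-coupled exporter of organic cations MATE1. It had 9.56, 9.68 and 8.54 at D8, against 6.25, 6.47 and 4.75 at D0, was detected on every array from D2 on and on none at D0, and was at least 6.04-fold higher (3.48-fold on the authors' values, adjusted p = 7.6e-04). Thus the import carrier Slc22a3 was detected at isolation and the export carrier Slc47a1 in culture, with no array that detected both. Since the rule used detection, nothing further is read from this contrast. Slco2a1, the prostaglandin transporter, had 6.70, 7.27 and 7.63 at D8, against 6.02, 5.31 and 5.75 at D0, and was at least 1.45-fold higher (1.24-fold on the authors' values, adjusted p = 7.0e-04).

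Vitamin and heme carriers held 10 members, of which 5 were higher and 2 lower. Slc23a1, the sodium-coupled vitamin C carrier SVCT1, had 5.46, 5.09 and 5.18 at D8, against 8.46, 9.04 and 8.22 at D0. It was detected at D0 alone, the only day through which it met the detection rule. It was at least 4.38-fold lower at D8 (2.44-fold on the authors' values, adjusted p = 3.2e-07). Its relative Slc23a2 (SVCT2) was detected on no D0 array, on all 3 arrays of D2 and of D4, on 2 at D6 and on none at D8. Its mean log2 signals ran 5.42, 7.24, 6.61, 6.50 and 6.11 over the 5 days, past the threshold between D2 and D0 (adjusted p = 4.4e-04) but not between D8 and D0 (adjusted p = 0.14). Slc23a3, a further member of the family, fell by 0.99.

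Slc19a1, the reduced folate carrier, had 9.79, 9.76 and 8.92 at D8, against 7.67, 7.65 and 7.30 at D0 (log2 change 1.95, SE 0.35, adjusted p = 0.00108). Slc46a1, the proton-coupled folate carrier, passed as higher (adjusted p = 0.018) but has no measured fold, with detection on 2 D8 arrays and no D0 array. Slc48a1, which moves heme out of endosomes and lysosomes, had 9.77, 9.98 and 9.63 at D8, against 8.31, 7.98 and 8.24 at D0 (log2 change 1.62, SE 0.19, adjusted p = 2.3e-05). None of these genes overlapped between the days. Slc46a3, a lysosomal carrier, had 7.47, 8.22 and 8.04 at D8, against 6.88, 6.63 and 4.35 at D0. Its log2 change of 1.96 was 1.15 without D0 array 3, which it was not detected on. Slc19a2, the thiamine carrier, was gained by detection with a bound of 1.02-fold, and its call (adjusted p = 0.0276) was lost without D8 array 1 or 3 or D0 array 1 or 2, with an adjusted p of up to 0.0951.

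Among 27 amino acid carriers, 6 were higher, 6 lower and 15 not past the threshold. Slc1a5, the sodium-dependent exchanger of glutamine and other neutral amino acids ASCT2, had 11.18, 10.81 and 10.25 at D8, against 8.33, 8.18 and 8.60 at D0 (log2 change 2.38, SE 0.31, adjusted p = 5.8e-05). A further probe of the gene was detected on no array (change -0.37), and the mean of both probes rose by 1.00. Slc1a3, the glutamate carrier GLAST, had 13.32, 13.27 and 12.06 at D8, against 10.73, 10.89 and 10.31 at D0, a change of 2.24 (SE 0.42, adjusted p = 0.00136). Slc38a6 (1.71), of the family of sodium-coupled neutral amino acid carriers, the taurine carrier Slc6a6 (1.13) and the broad neutral and cationic amino acid carrier Slc6a14 (1.04) rose as well. Slc38a7, a lysosomal glutamine carrier, passed the test but was detected neither at D0 nor at D8.

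The falls included the exchanger known as LAT1. Slc7a5, its light chain, which brings in large neutral amino acids, had 8.80, 7.86 and 6.91 at D8, against 10.23, 9.91 and 10.97 at D0, a change of -2.51 (SE 0.53, adjusted p = 0.00328). Slc3a2, the heavy chain it pairs with, had 12.85, 13.14 and 12.82 at D8, against 13.88, 13.66 and 13.78 at D0 (log2 change -0.84, SE 0.21, adjusted p = 0.00981). Slc38a2, a sodium-coupled carrier of small neutral amino acids, had 13.68, 13.56 and 13.10 at D8, against 15.32, 15.36 and 15.15 at D0 (log2 change -1.83, SE 0.20, adjusted p = 1.2e-05). Its relative Slc38a1 fell by 1.32 (adjusted p = 0.00227). Slc6a20a, which carries proline and other imino acids, had 5.67, 5.89 and 6.69 at D8, against 9.28, 8.49 and 9.31 at D0, and fell by 2.94 (SE 0.42, adjusted p = 1.4e-04), with detection on 1 of 3 D8 arrays.

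Of 10 carriers known to be induced through the transcription factor ATF4 when other cells lack amino acids, 6 were members. Slc1a5 was higher at D8, Slc7a5, Slc3a2, Slc38a2 and Slc7a1 were lower, and Slc6a9, the glycine carrier GlyT1, did not pass (log2 change -0.53, adjusted p = 0.107), although it did between D2 and D0 (-0.99, adjusted p = 0.00349). The median change of the 10 was -0.37, against -0.02 over all probes. Slc7a1, the cationic amino acid carrier CAT-1, had 6.16, 5.98 and 5.08 at D8, against 6.78, 6.55 and 7.29 at D0, and was at least 1.35-fold lower (1.15-fold on the authors' values, adjusted p = 0.0163). This call was lost without D0 array 3 or D8 array 3, with an adjusted p of up to 0.0766, and the gene met the detection rule through D0 alone. Slc7a11, Slc1a4, Slc7a3 and Slc43a1 were detected on fewer than 3 arrays. ATF4 binds composite sites of the form TGATGNAA, read here on both strands (TTNCATCA on the other), and a match is a description, not a shown site.

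RefSeq promoters (GRCr8) were matched for 136 of the 166 members by gene identifier, and the 250 bases before the start of transcription were searched. The motif stood in 5 of these 136 windows (3.68%), in 2 of 22 amino acid carriers (9.09%) and in 905 of 27457 windows of all genes (3.30%). The members with a match were Slc7a1, Slc38a1, Slc23a3, Slc49a4 and Slco2a1. The windows of Slc7a1 (chr12:11664238-11664487, plus strand) and Slc38a1 (chr7:129681402-129681651, minus strand) are shown because both amino acid carriers were lower at D8, and that of Slco2a1 (chr8:112467489-112467738, plus strand) because it was gained. Each is printed 5′ to 3′ with the match to the motif in capitals. The first base of the match lies at -30 in Slc7a1, at -142 in Slc38a1 and at -92 in Slco2a1, counted from the annotated start of transcription.
Slc7a1: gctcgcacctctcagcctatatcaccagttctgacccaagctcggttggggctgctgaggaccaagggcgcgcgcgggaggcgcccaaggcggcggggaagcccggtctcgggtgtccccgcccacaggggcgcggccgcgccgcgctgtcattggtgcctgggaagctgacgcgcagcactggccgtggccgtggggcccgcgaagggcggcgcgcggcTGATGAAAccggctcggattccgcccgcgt
Slc38a1: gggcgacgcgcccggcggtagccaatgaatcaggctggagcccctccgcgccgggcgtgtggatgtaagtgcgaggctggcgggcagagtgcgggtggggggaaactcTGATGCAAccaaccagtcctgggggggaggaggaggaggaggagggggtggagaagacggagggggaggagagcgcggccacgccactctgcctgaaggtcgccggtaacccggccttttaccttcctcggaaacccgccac
Slco2a1: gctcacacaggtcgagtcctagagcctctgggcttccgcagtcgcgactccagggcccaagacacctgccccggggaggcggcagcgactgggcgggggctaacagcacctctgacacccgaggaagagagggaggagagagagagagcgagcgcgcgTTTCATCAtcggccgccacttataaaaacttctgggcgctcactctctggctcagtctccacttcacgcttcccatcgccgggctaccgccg
Slc7a1, Slc38a1 and Slc23a3 were lower at D8, Slco2a1 was higher and Slc49a4 did not pass. The genes with a match thus did not share a direction.

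Ion carriers held 17 members, with 4 lower, 3 higher and 10 not past the threshold. Slc26a4 encodes pendrin, an exchanger of chloride, iodide and bicarbonate. It had 4.77, 4.19 and 4.79 at D8, against 9.52, 9.47 and 9.93 at D0, and was at least 9.19-fold lower (4.46-fold on the authors' values, adjusted p = 2.1e-08). Its relative Slc26a9, an epithelial chloride transporter, had 5.62, 5.68 and 6.32 at D8, against 8.29, 7.37 and 8.59 at D0, and was at least 3.12-fold lower (1.92-fold on the authors' values, adjusted p = 1.9e-04). Slc26a9 met the detection rule through D0 alone. Slc4a4, the sodium bicarbonate cotransporter NBCe1, fell by 2.12 (SE 0.29, adjusted p = 9.7e-05), with 6.52, 6.46 and 6.86 at D8, against 8.32, 9.20 and 8.68 at D0, and by 1.38 in the mean with a probe that no array detected. The carriers of chloride and bicarbonate that fell thus included these 3, whose arrays did not overlap between days. Of the 4 airway markers, Scgb1a1 (-4.00), Scgb3a2 (at least 61.6-fold) and Cyp2f4 (at least 2.55-fold) were lower at D8, and Tubb4b did not pass (0.03). The log2 of the summed linear signals of the 4 ran from 13.95 to 14.33 at D8 and from 16.01 to 16.09 at D0. The part of airway cells in these falls was not tested.

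Slc24a4, an exchanger of sodium for calcium and potassium, fell by 2.49 (SE 0.37, adjusted p = 1.8e-04). Higher at D8 were Slc8b1, the mitochondrial sodium-calcium exchanger, the phosphate importer Slc20a2 (PiT2) and Slc12a4, the potassium-chloride cotransporter KCC1. Slc8b1 had 9.97, 10.04 and 9.48 at D8, against 8.07, 8.18 and 7.52 at D0 (log2 change 1.91, SE 0.38, adjusted p = 0.00218), while Slc20a2 rose by 1.10 and Slc12a4 by 1.02. The other phosphate importer, Slc20a1 (PiT1), did not pass (-0.78, adjusted p = 0.142). Slc4a1, the anion exchanger of red cells, was detected on 1 D0 array and 1 D8 array and did not pass (-0.46, adjusted p = 0.447). The globin genes fell, and the erythroid marker Ahsp did not pass (-0.26). Slc41a2, a magnesium carrier, was gained by detection but did not pass (adjusted p = 0.169), and its bound of 1.03-fold fell to 0.952 without D8 array 1.

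Of 22 metal carriers, 6 were higher, 1 was lower and 15 did not pass, with a median change of 0.42. Slc39a2 (ZIP2), an importer of zinc, had 11.59, 11.59 and 11.29 at D8, against 9.19, 9.95 and 8.67 at D0 (log2 change 2.22, SE 0.29, adjusted p = 5.5e-05). Slc31a2, a copper carrier of intracellular membranes, had 9.12, 8.98 and 8.02 at D8, against 6.63, 6.11 and 6.46 at D0 (log2 change 2.31, SE 0.34, adjusted p = 1.7e-04), with detection on 1 of 3 D0 arrays. Slc39a8 (ZIP8), which brings in zinc and manganese, had 9.44, 9.81 and 8.15 at D8, against 7.16, 7.26 and 6.43 at D0. Its change of 2.18 (adjusted p = 0.0125) did not pass without D8 array 1, D8 array 2 or D0 array 3 (adjusted p of up to 0.0646). Slc39a13, a further zinc carrier, rose by 0.82 (adjusted p = 0.00632). The zinc carrier Slc39a6 passed as higher but did not meet the rule for named genes (detection on all 3 arrays of the brighter day, no overlap).

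Slc11a1 (NRAMP1) pumps metal out of the phagosomes of macrophages. It had 8.91, 9.47 and 8.74 at D8, against 6.66, 7.49 and 6.72 at D0 (log2 change 2.09, SE 0.50, adjusted p = 0.00822), and its daily means ran 6.96, 9.32, 10.30, 9.66 and 9.04. Of the 7 macrophage and leukocyte markers, Aif1 (1.84), Tyrobp (2.61) and Itgam (1.66, no D0 array with detection) were higher at D8, and Mrc1 (0.80), Ptprc (0.13), Marco (-0.44) and Cd14 (-0.95) did not pass. Between D2 and D0, where Slc11a1 rose by 2.36, 0 of the 7 passed. Their changes were 1.26 (Itgam), 1.16 (Tyrobp), 0.53 (Aif1), 0.30 (Mrc1), -0.04 (Ptprc), -0.15 (Marco) and -0.89 (Cd14). As for Slc11a1, the daily means of Aif1, Tyrobp, Itgam, Mrc1 and Ptprc were highest at D4. That of Cd14 was highest at D0, and Marco was detected on no array. The part of such cells in the change of Slc11a1 was not tested. The fall was that of its relative Slc11a2 (DMT1), the importer of ferrous iron, with 10.46, 10.36 and 10.53 at D8, against 11.98, 11.79 and 12.17 at D0 (log2 change -1.53, SE 0.23, adjusted p = 1.9e-04). The related genes of this pair thus moved in opposite directions. Slc40a1, the iron exporter ferroportin, did not pass (0.73, adjusted p = 0.0563).

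The 24 mitochondrial carriers gave 3 higher, 3 lower and 18 not past the threshold, with a median of 0.01. Slc25a25, which exchanges ATP-magnesium for phosphate and responds to calcium, had 10.07, 10.08 and 9.21 at D8, against 13.22, 13.05 and 12.87 at D0 (log2 change -3.26, SE 0.33, adjusted p = 5.8e-06). Slc25a1, the citrate carrier that feeds fatty acid synthesis, fell by 1.04 (adjusted p = 0.00368), and Slc25a35, with no settled substrate, by 1.70 (adjusted p = 1.7e-04). The call of Slc25a1 was lost with scaling to a common median (adjusted p = 0.121) or only the days compared (adjusted p = 0.0511). Slc25a51, the carrier of NAD into mitochondria, rose by 1.15 (adjusted p = 0.00136), and Slc25a46, a protein of the outer membrane involved in mitochondrial fission, by 1.23 (adjusted p = 2.2e-04). Slc25a29, which carries basic amino acids, rose by 1.09 (adjusted p = 0.0195), a call lost without D8 array 2 or D0 array 3 (adjusted p of up to 0.101). The ATP and ADP exchangers Slc25a4 (0.32) and Slc25a5 (-0.61) and the phosphate carrier Slc25a3 (0.04) did not pass.

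The remaining classes were small. Of 13 nucleoside and nucleotide sugar carriers, 3 were higher and 1 lower. Slc29a3, the lysosomal nucleoside carrier ENT3, had 10.37, 10.23 and 9.99 at D8, against 8.29, 8.78 and 7.81 at D0 (log2 change 1.90, SE 0.23, adjusted p = 3.7e-05). Slc35c1, which brings GDP-fucose into the Golgi, rose by 1.12 and Slc35a4 by 0.94, while Slc35a3, a carrier of UDP-N-acetylglucosamine, was lower by 0.61 (adjusted p = 0.0481), a call lost without D8 array 1 or 2 or any single D0 array (adjusted p of up to 0.189). Of 6 lipid and choline carriers, Slc44a4, of the choline carrier-like family, had 8.10, 7.66 and 8.03 at D8, against 9.57, 9.35 and 9.12 at D0 (log2 change -1.42, SE 0.25, adjusted p = 8.1e-04), and none rose. The fatty acid carriers Slc27a1 (0.05) and Slc27a4 (0.04) did not pass. Of 3 peptide carriers, Slc15a4, a lysosomal carrier of histidine and peptides, was higher by 1.00 (adjusted p = 0.00757), and Slc15a2 (PEPT2), the peptide importer known from AT2 cells, was at least 1.36-fold lower (adjusted p = 0.0232), with detection on 2 of 3 D0 arrays.

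The largest rise among the members was that of Slc66a3, a protein of the PQ-loop family with no settled substrate. Its log2 signals were 12.84, 12.80 and 12.05 at D8, against 7.13, 8.03 and 7.29 at D0, a change of 5.08 (SE 0.31, adjusted p = 4.5e-08). All D8 arrays thus lay far above all D0 arrays. Its relatives divided: Slc66a1, the lysosomal exporter of cationic amino acids, rose by 1.61 (adjusted p = 0.00427), and Slc66a2 fell by 1.28 (adjusted p = 5.4e-04). Slc6a4, the serotonin carrier, passed as lower by 1.45 (adjusted p = 0.0275) but, like Slc39a6, did not meet the rule for named genes. Slc7a6os (-1.62) and Slc4a1ap (0.64) carry such symbols without being carriers, and both passed. The call of Slc4a1ap was lost without D8 array 1, D8 array 2 or D0 array 3 (adjusted p of up to 0.132).

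**Figure D2:**
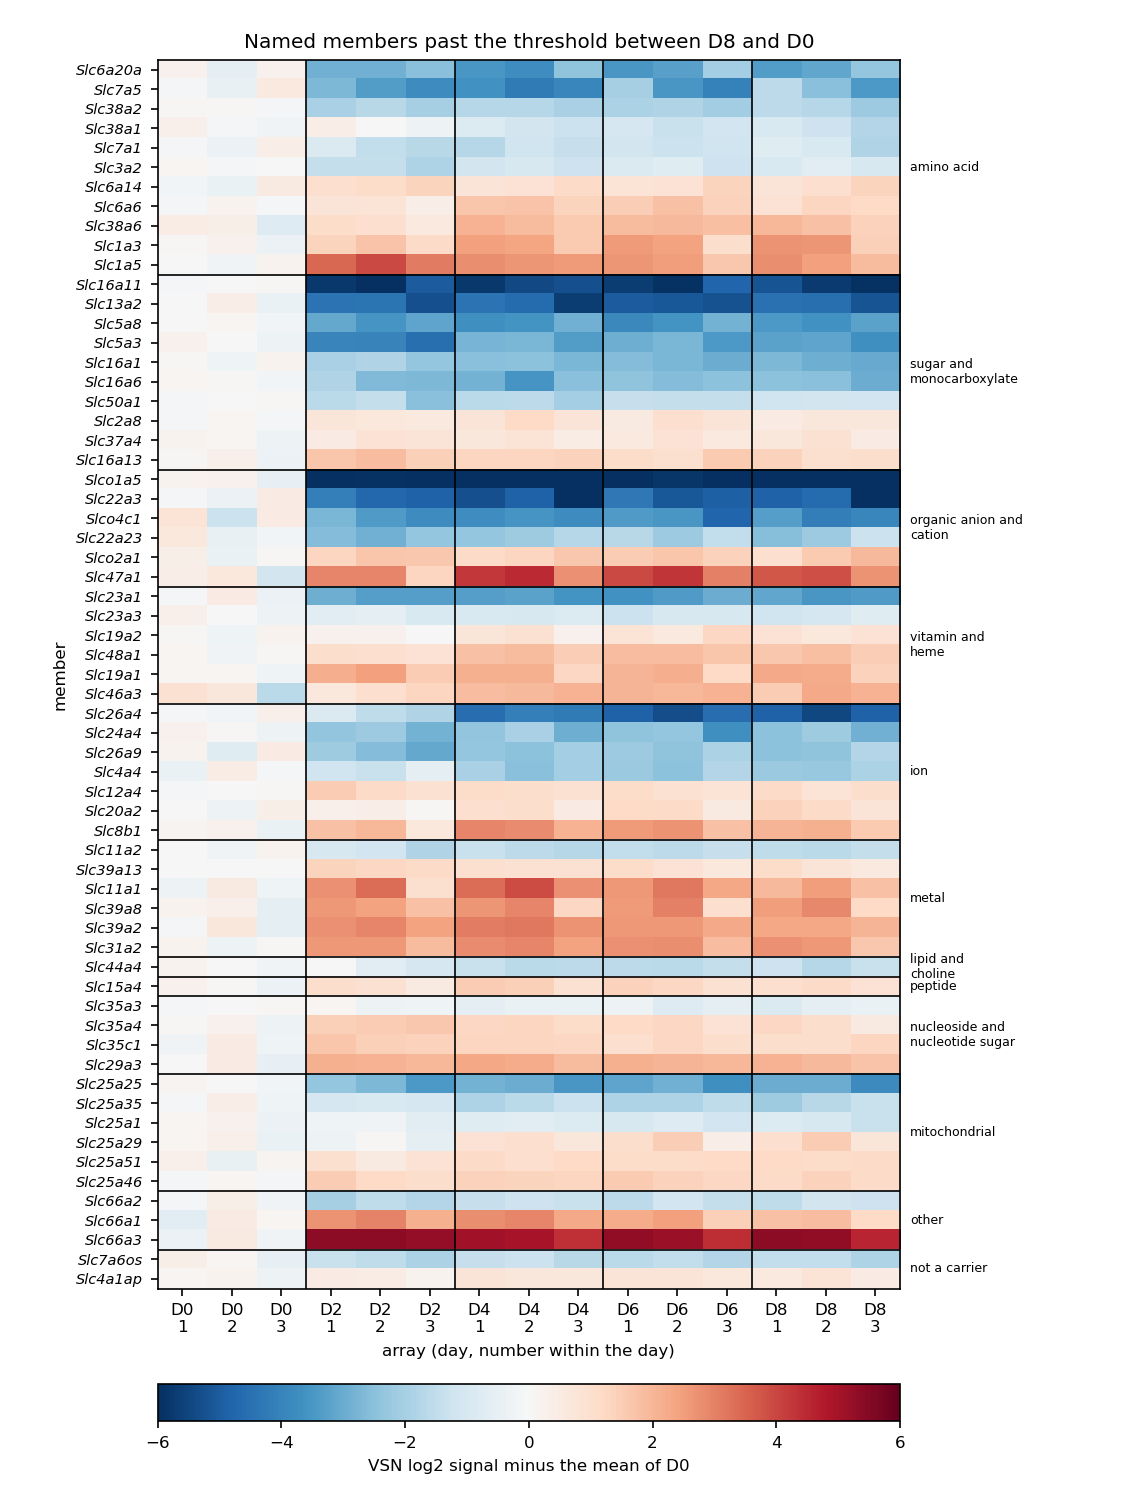
VSN log2 signal minus the D0 mean of the same gene (colour, blue lower and red higher) on each of the 15 arrays (columns, by day) for the 63 named members past the threshold between D8 and D0 (rows, by substrate class). The colour scale ends at 6 in either direction. Slco1a5 at -6.28 and Slc66a3 at 5.08 are the extremes at D8, and in most rows the colour of D8 is already present at D2.

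When the changes arose was read from the single steps. Between D2 and D0, 79 members passed (45 higher, 34 lower), 47.6% of the members, against 18.5% of all probes and 36.4% of the probes detected on at least 3 arrays. By direction, 10.3% of all probes were higher and 8.15% lower, and 21.7% of the detected probes were higher and 14.7% lower. D4 against D2 gave 3 members (1.81%), 1 higher and 2 lower, where 1.37% of all probes (0.733% higher, 0.635% lower) and 2.91% of the detected probes (1.56% higher, 1.35% lower) passed. This count depended on the processing: neqc, quantile normalization, the authors' values, the filter on dim probes and both ways of fitting the slide gave 12 to 17 members, with 10 higher and 7 lower when slide was a term. D6 against D4 and D8 against D6 gave 0 of 22523 probes each by limma, and 0 members had an unadjusted p under 0.05 in either step. Every alternative run for these steps also gave 0 members. Slide differences stayed in the spread of the main fit, and a count of 0 does not show that no member changed. The comparisons D2 minus D0 and D8 minus D0 share the D0 arrays.

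**Figure D3:**
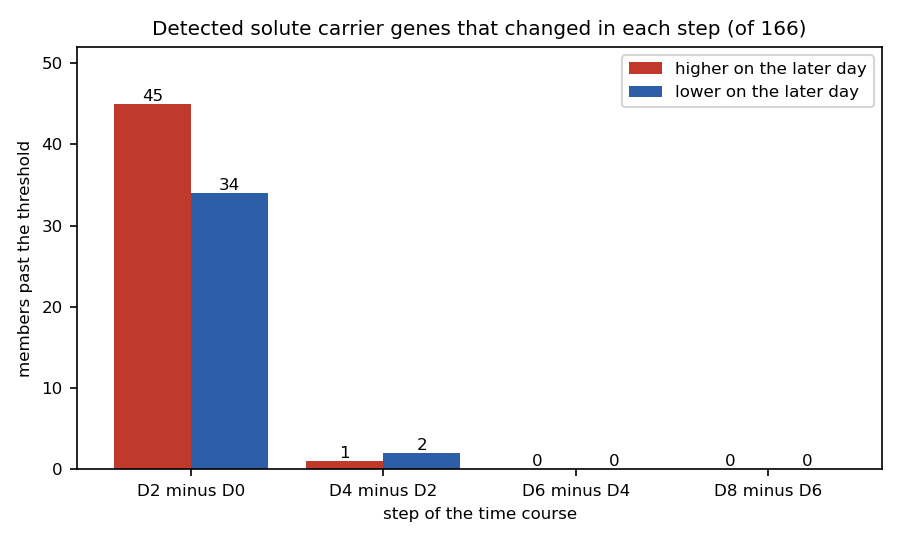
Members past the adjusted threshold (y axis, of 166) in each step of the time course (x axis), red for higher and blue for lower on the later day. The step to D2 held 45 higher and 34 lower members, the step to D4 held 1 and 2 (12 to 17 in all under the alternatives named above), and later steps held 0.

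Several of the largest falls were already present at D2. Slco1a5 stood at 6.49, 6.86 and 6.55 at D2, against 13.01, 13.05 and 12.32 at D0 (log2 change -6.16, adjusted p = 1.2e-09). Slc16a11, Slc13a2 and Slc22a3 were detected on no D2 array and were at least 17.2-fold, 11.8-fold and 11.8-fold lower at D2 than at D0 (7.48-fold, 5.35-fold and 5.34-fold on the authors' values). Slc66a3 had 12.84, 12.84 and 12.74 at D2, a rise of 5.32 (adjusted p = 4.1e-08). Slc1a5 was highest at D2, with 11.80, 12.31 and 11.50 (log2 change 3.50 against D0, adjusted p = 1.6e-06), followed by daily means of 11.05, 10.63 and 10.75. Slc39a2 (2.69) and Slc66a1 (2.59) were the next of the rises to D2.

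Pendrin fell later. Slc26a4 had 8.79, 8.12 and 7.85 at D2, against 9.52, 9.47 and 9.93 at D0 (log2 change -1.39, adjusted p = 0.00296), and was still detected on all 3 D2 arrays. At D4 it had 5.05, 5.56 and 5.41 and was detected on none, at least 3.87-fold lower than at D2 (2.20-fold on the authors' values, adjusted p = 2.5e-04). Slc7a4, related to the cationic amino acid carriers but with no settled transport, was a peak of D2. Its means ran 7.69, 8.95, 7.80, 7.57 and 7.41 over the 5 days, with a rise of 1.26 to D2 (adjusted p = 2.0e-04) and a fall by 1.15 to D4 (adjusted p = 0.00658). Slc5a3 was lowest at D2 (7.57, 7.54 and 7.01) and higher at D4 (8.76, 8.81 and 8.21), a step of 1.22 (adjusted p = 0.0391) that did not pass once any single D2 array, D4 array 1 or D4 array 2 was left out (adjusted p of up to 0.201).

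Against D2, D8 differed in 7 members (4.22%), 6 lower and 1 higher, where 2.49% of all probes (1.11% higher, 1.38% lower) and 5.25% of the detected probes (2.38% higher, 2.87% lower) passed. The same alternatives gave 16 to 20 members. Slc26a4 was at least 3.51-fold lower at D8 than at D2 (2.11-fold on the authors' values, adjusted p = 1.5e-05) and Slc7a4 lower by 1.55 (adjusted p = 3.5e-04). Slc38a1 had 8.18, 7.86 and 7.32 at D8, against 9.51, 9.09 and 8.81 at D2, a change of -1.35 (adjusted p = 0.0131), and at D2 it did not differ from D0 past the threshold (0.03, adjusted p = 0.966). Without D2 array 1, D8 array 2 or D8 array 3 it did not pass (adjusted p of up to 0.0771). Slc35b4 (-1.08) and Slc10a7 (-0.84) were lower at D8 than at D2 after higher values at D2 than at D0. Slc22a20, an organic anion carrier known from the olfactory mucosa of mice, was detected on the D2 arrays alone, with 6.67, 6.45 and 7.67. It thus met the detection rule only through D2. It was at least 1.40-fold lower at D8 than at D2 (1.21-fold on the authors' values, adjusted p = 0.0203), a call lost without D2 array 1 or 3 or D8 array 1 or 2 (adjusted p of up to 0.0976). Slc25a29 was higher at D8 by 1.35 (adjusted p = 0.0292), a call lost without the same arrays (adjusted p of up to 0.152).

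**Figure D4:**
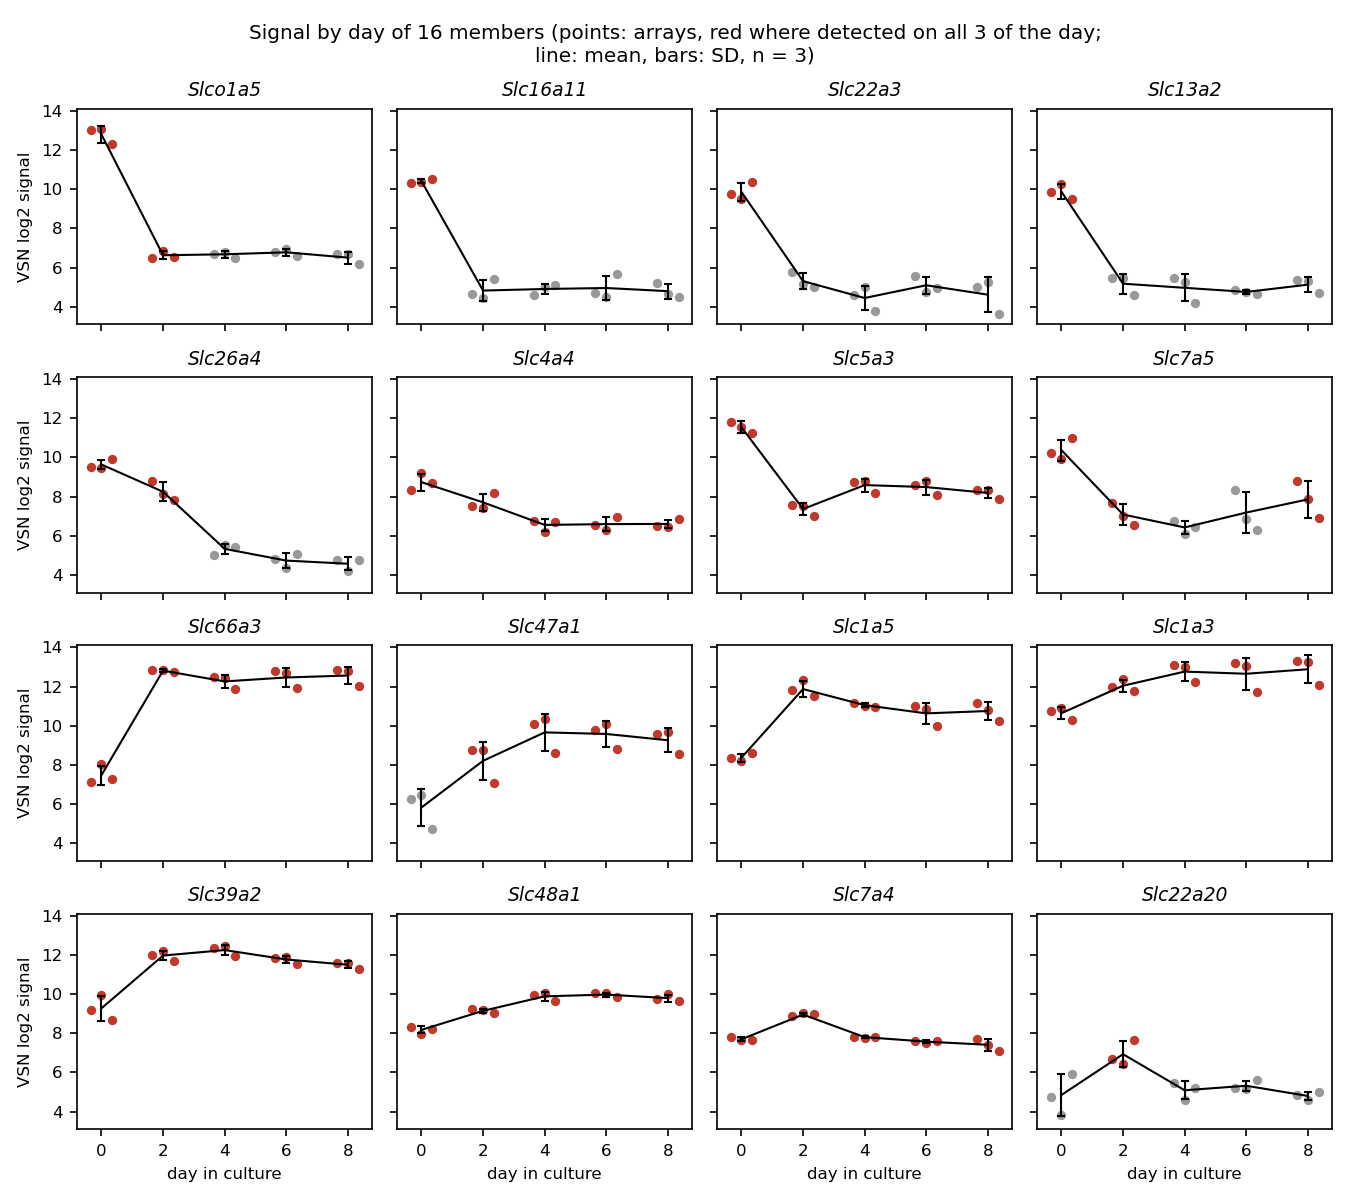
VSN log2 signal (y axis) by day in culture (x axis) of 16 members, with a point per array (red where all 3 arrays of the day detected the gene, grey otherwise) and the mean ± SD of 3 arrays per day. Slco1a5 is at 6.63 at D2 after 12.79 at D0, Slc26a4 reaches 5.34 at D4, and Slc7a4 and Slc22a20 are highest at D2 (8.95 and 6.93).

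The sizes of change differed between normalizations. With the values normalized by the authors, each of the 63 named calls between D8 and D0 kept its sign and passed, but 23 were smaller by over 1.5 times, such as Slc16a11 (-3.42), Slc13a2 (-2.84) and Slc47a1 (2.11). Slc66a3 (4.44) and Slco1a5 (-5.09) moved less. Levels were not compared between genes, since a probe's brightness depends on its sequence.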

How the data were processed

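RNA of 15 rat samples, 3 per day, was hybridized to Illumina RatRef-12 arrays. The deposited raw signals are intensity values that BeadStudio averaged over the beads of a probe, each with a detection p-value, and the authors did not normalize them between arrays. The log2 values deposited as the authors' normalized table (VSN through LUMI, per their methods) served as an alternative. LUMI could not be run, so VSN was fitted anew by maximum likelihood (trimming quantile 0.9, 7 rounds, 5 slices) and put on the log2 scale. limma 3.58.1 in R 4.3.3 fitted 1 mean per day to all 15 arrays, with Benjamini-Hochberg adjustment over 22523 probes and a threshold of 0.05. A read depth does not apply to arrays. Precision is limited by the number of arrays and, for dim probes, by signals near those of the negative controls.

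Substrate classes follow the family number of the symbol with exceptions by gene: Slc16a10 counts with the amino acid carriers, and Slc4a1ap and Slc7a6os as no carriers, while Slc5a6, a vitamin carrier, stays with the sugar carriers. The members and lists were chosen with earlier results of these data known. Named were the 12 largest changes per direction between D8 and D0 (the brighter day detected on its 3 arrays, no overlap), up to 3 more per class and direction, 4 per direction in D2 minus D0, D4 minus D2 and D8 minus D2, lost and gained members and the ATF4 list (67 genes). Others named (such as Slc23a2, Slc46a1, Slc20a1, Slc25a3 or Slc40a1) were chosen after their values were seen. Alternatives were other normalizations, a filter on dim probes, fits to the compared days, slides as a fixed or random effect, slide 1 without the others, leaving out each array, a linear regression on day, the mean of all probes, a log2 change of at least 1 and a detection p under 0.05. Those for named members outside D8 minus D0, the bounds and detection without each array were added after seeing the data. The pipeline was tested on simulated data.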

Additional observations from a re-analysis of the deposited data

How the results depend on the processing

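Counts of members past the threshold held within 1.5 times of 69 between D8 and D0 (52 to 90) except with a linear regression on day over the 15 arrays, which gave 43, and the 6 fits without 1 array gave 61 to 68. Between D2 and D0 the count ran from 58 to 87, and without 1 array from 60 to 73. The small counts moved most. Against 3 members between D4 and D2, neqc gave 12, quantile normalization 16, the authors' values 13, the filter on dim probes 12, slide as a term 17, slide as a random block 17 and slide 1 alone 9, and leaving out 1 array 2 to 3. Against 7 between D8 and D2, neqc gave 19, quantile normalization 20, the authors' values 19, the filter 19, a fit to the compared days 3, slide as a term 16, the random block 20 and slide 1 alone 17, and leaving out 1 array 2 to 7 (2 without D2 array 1 or D8 array 2, 4 without D8 array 1). The cause of these shifts was not tested. The later steps gave 0 under each alternative, and 0 without each array. Lost members were 9 at a detection p under 0.01 and 5 at 0.05, and 9 to 11 without 1 array. Gained members were 4 and 3, and 4 to 8 without 1 array (8 without D8 array 3).

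Of the 63 named calls between D8 and D0, 23 were lost with the linear regression, 14 with only the days compared and 11 with scaling to a common median. On slide 1 alone 3 were lost, and 2 to 7 without 1 array. The other normalizations, the filter, both ways of fitting the slide and the mean of all probes lost 0. Asking for a log2 change of at least 1 left 58 of the 69 called members. It dropped named calls such as Slc2a8 (0.60) and Slc35a3 (-0.61). Changes were smaller by over 1.5 times for 28 of the 63 with quantile normalization, 28 with scaling to a common median, 23 with the authors' values and 10 with the regression. Slc1a5 (1.41, adjusted p = 0.287), Slc5a3 (-2.23, adjusted p = 0.0983), Slc39a2 (1.70, adjusted p = 0.107) and Slc7a5 (-1.97, adjusted p = 0.193) were among those lost with the regression, which fits a straight line through the days. Slc41a2 passed with neqc (adjusted p = 0.0404), and Slc6a9 passed with neqc (adjusted p = 0.0225), quantile normalization (adjusted p = 0.0121) or the filter (adjusted p = 0.0323). The change of Slc22a20 between D8 and D0 (-0.05, no call) turned to 0.40 on slide 1 alone and, without D8 array 2 or D0 array 3, to 0.06 and 0.49, with -0.56 without D0 array 2 as the lowest value of the leave-one-out fits. No paired analysis was possible because the labels give no replicate numbers that join arrays of different days, and the slide, which the labels do give, was the only block fitted (90 members between D8 and D0 as a term and as a random block). Dim signals limit the folds of 17 of the 69 called members.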

Other observations

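Carriers of the same superfamily with other symbols, and ABC transporters, which are pumps driven by ATP, were read from lists chosen with results of these data known. Of 25 such carriers, 22 had a probe, and 3 were higher, 3 lower and 16 not past the threshold at D8 against D0 (median log2 change -0.02). Of the 22, 18 were detected on at least 3 arrays. Both lists are to be read beside all probes (18.0% passed, median -0.02) and the detected probes (35.5% passed, median 0.12). Mfsd2a, which carries lysophosphatidylcholine, averaged 5.77 ± 0.58 at D8 and 9.55 ± 0.63 at D0 (SD, n = 3 each) and was at least 8.61-fold lower (limma adjusted p = 5.3e-06). Npc1, which moves cholesterol out of lysosomes, fell by 1.04 (adjusted p = 0.0046) and Rhbg, an ammonium carrier, by 1.11 (adjusted p = 0.0301). Mfsd11 (1.80), the mitochondrial carrier Ucp2 (0.91) and Mtch2 (0.81), a protein of the outer mitochondrial membrane, rose.

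Of 35 ABC transporters, 28 had a probe, and 5 were higher, 2 lower and 21 not past the threshold (median 0.31). Of the 28, 22 were detected on at least 3 arrays, and the shares of all and of detected probes above apply. Abcc5, an exporter of cyclic nucleotides, averaged 10.14 at D8 and 7.45 at D0 (log2 change 2.69, SE 0.26, adjusted p = 3.2e-06), and Abca5 averaged 9.85 at D8 and 7.30 at D0 (log2 change 2.55, SE 0.23, adjusted p = 2.2e-06). Abca2 (1.45) and Abcc3 (1.33), an exporter of organic anions, rose as well. Abca1, the exporter of cholesterol to apolipoproteins, had daily means of 10.53, 7.84, 10.04, 9.85 and 9.46 and was lower at D8 by 1.07 (adjusted p = 0.0144), and Abcb9, a peptide pump of lysosomes, was lower by 0.77. Abcb4 passed the test but was detected on no array of D8 or D0.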
